A study of Mus musculus with 2 samples.

Results

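The genes described here are the histone-modifying enzymes measured in 2 mRNA libraries of mouse CD4 T cells cultured toward Th17 cells, the helper T cells that make IL-17. They were taken by name from the deposited count table, as the rows whose symbol begins with Kdm, Kmt, Setd, Hdac, Kat, Prmt, Sirt, Nsd, Ehmt or Ezh and a digit, or with Suv39h. The rule found 77 of 22036 genes, of which 41 are writers, enzymes that add a chemical group, and 36 are erasers, which remove one. Both cultures started from CD4 T cells of wild-type mice, taken from spleens and lymph nodes per the culture protocol, and were kept for 24 h on plates coated with 10 μg/mL anti-CD3 and 5 μg/mL anti-CD28, with antibodies against IFNγ and IL-4. IL-6 at 20 ng/mL was added to both. The pathogenic Th17 culture (pTh17) also received activin A at 20 ng/mL, and the non-pathogenic Th17 culture (npTh17) TGFβ1 at 2 ng/mL, so the conditions differ in the TGF-β family ligand. The labels give neither the number, sex nor age of the mice.

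Each condition had 1 library, so no difference has a replicate check and no test between conditions was made. On named genes, pTh17 held 30877656 counts and npTh17 33470161. CPM is the count scaled to library size, and a log2 ratio is that of pTh17 CPM to npTh17 CPM, positive where pTh17 was higher. Where 2 counts or levels of a gene or list are given, that of pTh17 comes first. The range after a ratio is its 95% counting interval. A gene is called higher in one library only where this interval leaves out a ratio of 1, which says that these 2 libraries differ beyond counting error and nothing about other cultures. In such bulk samples, fewer cells of a type and less RNA per cell cannot be told apart. FPKM, which is also scaled to transcript length, is used to compare levels between genes. The 8 CD4 T cell markers summed to 2796 CPM in pTh17 and 2859 CPM in npTh17, and the 8 Th17 markers to 1420 and 1892 CPM. Marker lists of B, NK, CD8 T, myeloid and erythroid cells each summed to at most 4.70 CPM, with all 4 NK cell markers and the B cell gene Pax5 at 0 counts in both libraries. The B cell sum was 0.808 CPM against 0.180 CPM and the myeloid sum 3.78 CPM against 4.70 CPM, with Csf1r, Adgre1 and Flt3 at 0 in both.

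Histone tails carry acetyl and methyl groups that change how tightly DNA is packed and which proteins bind there. Acetyltransferases mark active chromatin, and zinc-dependent deacetylases and the NAD-dependent sirtuins remove acetyl groups. Methylation is read by position: on histone H3, methylated lysine 4 is found at active promoters and enhancers, methylated lysine 36 along transcribed genes, and methylated lysines 9 and 27 at silent chromatin. In T helper cells, the lysine 27 methyltransferase EZH2 and the demethylases that reverse its mark act at cytokine and master regulator genes. Several of these enzymes also act on proteins other than histones, and transcript levels do not measure histone marks.

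Promoter sequences were looked up in RefSeq (assembly GRCm38.p6), which gave a window of 250 bases before to 50 after the start for 62 of the 77 genes. The members' windows were rich in CpG, with a median of 20.5 CpG against 7 over 27025 genes, and a median GC content of 60.5% against 52.7%. These 27025 are all genes with a RefSeq window, expressed here or not, and they also serve for the motif shares below. No comparison with expressed genes alone was made. Motifs of factors of the cell cycle and of the cytokine pathways were searched on both strands, and at most 8 members held any 1 of them. The forkhead motif GTAAACA, the kind bound by Foxo1, stood in 3.23% of members and 4.05% of all genes. These 2 members, Hdac7 and Kdm2b, are printed because the series concerns Foxo1, with the motif in capitals in the orientation of the gene (the reverse complement in Kdm2b).
Hdac7: ccctggcttgtGTAAACAtggatgcacgc
Kdm2b: atcggcaacaaTGTTTACgttccggggat
The Hdac7 stretch is chr15:97831861-97831889 on the minus strand, with the motif at position -111 from the start and no annotated exon. The Kdm2b stretch is chr5:122989126-122989154 on the minus strand, with the motif at position -44, and all 29 bases lie in an annotated exon. The 2 E2F forms searched, TTTGGCGC and TTTCCCGC, and the SMAD palindrome GTCTAGAC are printed for the 4 members that hold one, since E2F factors act in the cell cycle and SMAD factors carry the signals of activin A and TGFβ1.
Ezh2: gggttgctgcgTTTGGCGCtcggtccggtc
Kmt5c: ggccagaagagGCGGGAAAaagagagcaat
Sirt4: ccggctgaaggTTTCCCGCtgagcattctt
Sirt6: tgaaacatagaGTCTAGACaatgggaggga
The first form was found in 1.61% of members and 0.585% of genes, the second in 3.23% and 1.24%, and the SMAD palindrome in 1.61% and 0.248%, shares that rest on 1 or 2 members each. The Ezh2 match at chr6:47595009-47595038 (minus strand) begins at position 4 after the start, inside an annotated exon. The Kmt5c match (chr7:4740011-4740040, plus strand) begins at position -105 outside annotated exons. The Sirt4 match (chr5:115484288-115484317, minus strand) begins at -9, with 10 bases of the stretch in an annotated exon. The Sirt6 match (chr10:81627362-81627391, minus strand) begins at -58 of the RefSeq start, inside the gene as GENCODE draws it but in no annotated exon. The E-box CACGTG stood in 12.9% of members and 8.09% of genes and the STAT motif TTCNNNGAA in 8.06% and 9.55%. The E-box and both E2F forms contain CG, and the part of the CpG difference in their shares was not tested. Shown with CpG in capitals are the 250 bases before the start of 2 genes that were lower in pTh17, Ezh1 (chr11:101226464-101226713, minus strand) and Kdm5b (chr1:134559928-134560177, plus strand).
Ezh1: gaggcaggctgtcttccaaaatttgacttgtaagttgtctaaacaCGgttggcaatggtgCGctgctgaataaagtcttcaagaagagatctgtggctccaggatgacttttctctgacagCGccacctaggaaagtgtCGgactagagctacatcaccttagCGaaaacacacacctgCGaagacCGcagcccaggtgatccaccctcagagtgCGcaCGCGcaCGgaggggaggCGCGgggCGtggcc
Kdm5b: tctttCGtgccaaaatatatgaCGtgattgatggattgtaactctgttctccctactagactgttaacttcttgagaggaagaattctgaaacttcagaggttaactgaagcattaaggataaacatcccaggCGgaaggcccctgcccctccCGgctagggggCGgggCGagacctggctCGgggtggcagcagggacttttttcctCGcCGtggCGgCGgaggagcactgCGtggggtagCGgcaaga
The Ezh1 stretch holds 14 CpG and the Kdm5b stretch 13. A match is a description of letters, and binding was not measured.

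Most of the enzymes were expressed in both cultures, at close levels. Of the 77 genes, 73 reached a mean of at least 1 CPM, 40 of 41 writers and 33 of 36 erasers. The arginine methyltransferase Prmt8 had 0 counts in both libraries, where a count of 0 allows up to 0.0970 CPM in pTh17 and 0.0898 CPM in npTh17. The class IIa deacetylase Hdac9 had 6 counts in pTh17 and 8 in npTh17, the class IV deacetylase Hdac11 had 11 and 8, and the demethylase Kdm4d had 2 and 4. No direction can be read at these depths. The 73 measured members had a median of 78.7 CPM, above the 38.2 CPM of all 10597 measured genes.

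No member differed by 2-fold, whereas 2.25% of all measured genes reached 2-fold in favour of pTh17 and 1.95% in favour of npTh17. At 1.5-fold, Sirt3 and Sirt6 were higher in pTh17, 2 of 73 or 2.74%, against 7.20% of all measured genes. In the other direction Kdm5b and Kmt2e passed, again 2.74%, against 5.76%. The members' log2 ratios ran from -0.64 to 0.68 with a median of 0.0019, and the median of all measured genes was -0.0045. Counting intervals left out a ratio of 1 for most members in both directions. They lay above 1 for 26 members (35.6%, against 33.0% of all measured genes) and below 1 for 29 (39.7%, against 34.0%), and 18 spanned 1. Low counts were more often 2 than 1, so a sequenced fragment may have been counted more than once, which would make these intervals too narrow. With all counts halved, 20 members lay above 1 (27.4%, against 27.3% of all measured genes) and 25 below (34.2%, against 27.7%).

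Writers and erasers as classes had medians near 0. Among 40 measured writers, 20 had a ratio above 1 and 20 below, with a median log2 ratio of -0.015, and 11 were higher in pTh17 and 14 lower. Among 33 erasers, 17 had a ratio above 1 and 16 below, with a median of 0.022, and 15 were higher and 15 lower. Their summed levels were also close: writers summed to 4706 CPM in pTh17 and 4721 CPM in npTh17, and erasers to 2413 and 2509 CPM. These medians are too close to 0 to hold a direction: with FPKM in place of CPM the eraser median was -0.020 and that of all members -0.056, and without the erasers that are mitochondrial or have no established activity on histones the eraser median was -0.099. The families inside each class differed more, as the following paragraphs and the plot of ratios by family show. Counts of genes higher or lower in pTh17, here and below, stand beside 33.0% higher and 34.0% lower over all measured genes. Counts of ratios above or below 1 stand beside 5240 above and 5357 (50.6%) below over all measured genes.

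**Figure D1:**
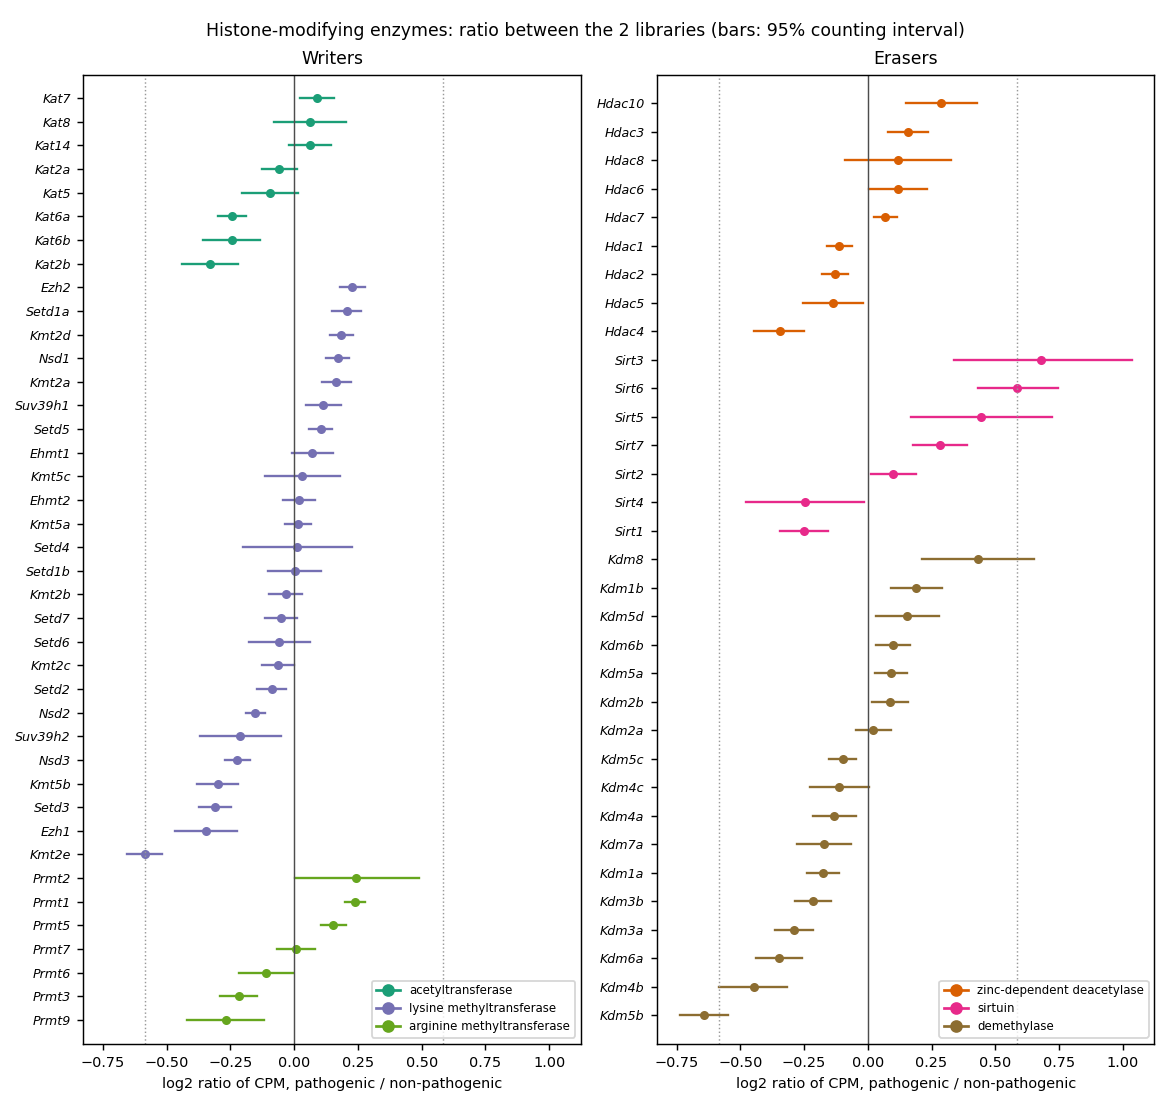
Log2 ratio of CPM (pTh17 over npTh17) for the 40 measured writers (left) and 33 measured erasers (right), grouped and coloured by family; points are ratios, horizontal bars 95% counting intervals, dotted lines 1.5-fold, 1 library per condition. Sirt3 at 0.68 and Kdm5b at -0.64 mark the 2 ends. Above 0 lie 5 of 7 sirtuins, against 5240 of 10597 measured genes. Below 0 lie 10 of 17 demethylases (58.8%, against 50.6% of all measured genes).

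The 7 sirtuins were the family with the highest median, 0.28, with 5 higher in pTh17 and 2 lower. Their median was 0.19 without the mitochondrial members, and also with a minimum of 5 CPM. Sirt3, the main deacetylase of the mitochondrial matrix (ENSMUSG00000025486, chr7:140863666-140882309), had 174 counts in pTh17 and 117 in npTh17, a log2 ratio of 0.68 (0.34 to 1.04), or 1.60-fold. Sirt6, a nuclear deacetylase of histone H3 with roles in DNA repair and glucose metabolism (ENSMUSG00000034748, chr10:81621785-81627797), had 805 and 579 counts and a log2 ratio of 0.59 (0.43 to 0.74). These are the only 2 members past 1.5-fold in that direction, and Sirt6 stands at the threshold itself and fell below it with DESeq2 size factors, a prior count of 5 or the length and GC trend removed. Sirt5, which removes succinyl and malonyl groups in mitochondria, had 247 and 196 counts and a log2 ratio of 0.44 (0.17 to 0.72). Sirt7, a nucleolar enzyme tied to ribosomal DNA transcription, had 1545 and 1372 counts and a log2 ratio of 0.28 (0.18 to 0.39). Sirt2, mainly cytosolic, had 2094 and 2111 counts and a log2 ratio of 0.10 (0.012 to 0.19).

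Sirt1 and Sirt4 went the other way. Sirt1, the nuclear deacetylase closest to yeast Sir2, had 1601 counts in pTh17 and 2057 in npTh17, a log2 ratio of -0.25 (-0.34 to -0.15), or -0.15 with the length and GC trend removed. Sirt4, a mitochondrial enzyme, had 276 and 354 counts and a log2 ratio of -0.25 (-0.48 to -0.016). With counts halved, 4 sirtuins stayed above 1 and 1 below. The highest ratio belonged to the gene with the fewest counts, since Sirt3 had the lowest level of all measured members, 5.63 CPM against 3.50 CPM. Exons of Sirt3 overlap Psmd13 and Ric8a on the opposite strand over 342 and 418 bases, and the protocol describes no step that marks strand, so reads there cannot be told apart. Psmd13 had a log2 ratio of -0.22 and Ric8a of 0.13, with 4369 and 2241 counts in pTh17. Summed with Sirt3 counts, Psmd13 gave -0.20, on the other side of 0, and Ric8a gave 0.16. Parts of the Sirt5 transcripts resemble other genes at over 95% identity, and its counts summed with those of Stx18 gave -0.037 and with those of Xpnpep1 -0.19. The other genes had far more counts, 793 for Stx18 and 2226 for Xpnpep1 in pTh17, so all these sums mostly carry the other gene. They cannot show the direction of Sirt3 or Sirt5 itself. How many reads were shared was not tested, and the ratios of both genes stay uncertain.

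Zinc-dependent deacetylases were split, with a median of 0.069, and 4 higher in pTh17, 4 lower and 1 not different beyond counting error. Hdac1 and Hdac2, the catalytic pair of the Sin3, NuRD and CoREST complexes, were both slightly lower in pTh17. Hdac1 had 6471 and 7553 counts (log2 ratio -0.11, -0.16 to -0.063) and Hdac2 had 5914 and 6989 (-0.13, -0.18 to -0.079). With the length and GC trend removed, Hdac2 was at -0.029. Hdac1 has a processed pseudogene, Gm10093, with 99.4% identity over 1444 bases, so its counts are uncertain. Hdac3, the enzyme of the NCoR and SMRT corepressors, was higher, with 2689 and 2606 counts (0.16, 0.079 to 0.24). Class IIa enzymes shuttle between nucleus and cytoplasm, and there Hdac4 was lowest, with 1468 and 2017 counts (-0.35, -0.44 to -0.25). Exons of Hdac4 overlap the noncoding gene Gm26720 on the opposite strand over 3536 bases. Hdac5 was at -0.14 and Hdac7, the class IIa enzyme of highest level here and one known from thymocytes, at 0.069, or 0.022 with that trend removed. The class IIb enzymes Hdac10, with 884 and 782 counts (0.29, 0.15 to 0.43), and Hdac6, the tubulin deacetylase, at 0.12 (0.0047 to 0.23), were both higher in pTh17. Hdac8 had a log2 ratio of 0.12 with an interval that spans 0 (-0.089 to 0.33).

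The 17 measured demethylases had a median of -0.11. Of them, 9 were lower in pTh17 (52.9%, against 34.0% of all measured genes) and 6 higher (35.3%, against 33.0%). The other 2 were not different beyond counting error. Kdm5b, which removes methyl groups from lysine 4 of histone H3 (ENSMUSG00000042207, chr1:134560171-134635285), had 1445 counts in pTh17 and 2438 in npTh17. Its log2 ratio of -0.64 (-0.74 to -0.55) was the lowest of any measured member, 1.56-fold in favour of npTh17. The other lysine 4 demethylases were closer to 0 and mixed. Kdm5a was at 0.091, Kdm5c at -0.099, Kdm5d at 0.15, Kdm1b at 0.19 and Kdm1a, the amine oxidase LSD1, at -0.17 (3760 and 4587 counts; -0.24 to -0.11). Kdm1b overlaps the highly expressed gene Dek on the opposite strand over 505 bases, and the 2 genes summed gave -0.091. Dek had 17833 and 20868 counts against 1651 and 1563 for Kdm1b, so this sum mostly carries Dek. How many reads were shared was not tested, and the ratio of Kdm1b stays uncertain. Kdm5d shares a stretch of 285 bases with Hddc3 at 96.1% identity.

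The 3 measured enzymes of the Kdm4 group, which act on lysines 9 and 36, all had ratios below 1. Kdm4b had 775 and 1143 counts (-0.45, -0.58 to -0.32), Kdm4a was at -0.13 (-0.22 to -0.047) and Kdm4c at -0.11 with an interval that reaches 0 (-0.23 to 0.0039). The lysine 9 demethylases Kdm3a, at -0.29, and Kdm3b, at -0.21, were lower too, as was Kdm7a at -0.17. So 5 of these 6 enzymes acting on lysine 9 were lower in pTh17 beyond counting error, as were 34.0% of all measured genes. Exons of Kdm3b overlap the noncoding gene Gm26538 on the opposite strand over 3468 bases. On lysine 27, Kdm6a, the X-linked enzyme UTX, had 1733 and 2382 counts (-0.35, -0.44 to -0.26), while Kdm6b, the inducible enzyme JMJD3, had 3567 and 3602 (0.098, 0.031 to 0.17). The lysine 36 enzymes Kdm2a and Kdm2b were at 0.022 and 0.086, but by FPKM at 0.16 and -0.020. Kdm8, for which a histone substrate is disputed, was the highest demethylase with 392 and 314 counts (0.43, 0.21 to 0.65).

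Lysine methyltransferases, the largest family with 25 measured members, were balanced: 7 higher in pTh17, 8 lower and 10 not different beyond counting error, with a median of 0.0019. Ezh2, the catalytic subunit of Polycomb repressive complex 2 (ENSMUSG00000029687, chr6:47530139-47595341), had 6976 counts in pTh17 and 6436 in npTh17 and the highest ratio of the family, 0.23 (0.18 to 0.28). Ezh1, its paralog of resting cells (ENSMUSG00000006920, chr11:101191115-101226463), had 958 and 1315 counts and a log2 ratio of -0.34 (-0.47 to -0.22). Both methylate lysine 27 of histone H3, and in this family only Kmt2e had a lower ratio than Ezh1.

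The enzymes for lysine 4 of histone H3 had ratios near or above 1. Setd1a (0.21), Kmt2d (0.18) and Kmt2a (0.17) were higher in pTh17, and the intervals of Setd1b (0.0019), Kmt2b (-0.033), Setd7 (-0.051) and Kmt2c (-0.063) spanned 0. Once the trend of ratios with transcript length and GC content was removed, Kmt2d was at -0.064, below 0, Kmt2a at 0.038, Kmt2b at -0.11 and Kmt2c at -0.14. By FPKM, Kmt2c was at -0.26. Setd1a shares 3523 exon bases on the same strand with Gm49388, which had 0 counts, so all reads of the shared part may have been given to Setd1a. Kmt2e has a SET domain, but no methyltransferase activity on histones is established for it (ENSMUSG00000029004, chr5:23434441-23504235). It had 2769 and 4491 counts and a log2 ratio of -0.59 (-0.65 to -0.52), at the 1.5-fold threshold, which it missed with library totals, FPKM, a prior count of 5 or the length and GC trend removed. Its exons overlap Srpk2 on the opposite strand over 972 bases. Srpk2 had a log2 ratio of -0.13, and the 2 genes summed gave -0.48.

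Of the lysine 36 enzymes, Nsd1 was higher in pTh17 (0.17, 0.12 to 0.22) and Nsd3 (-0.22), Nsd2 (-0.15) and Setd2 (-0.089), the enzyme that adds the third methyl group, were lower. Nsd2 had the highest CPM of all members, 338 against 376, and its log2 ratio was -0.066 with the length and GC trend removed. On lysine 9, Suv39h1, an enzyme of heterochromatin, had 3442 and 3437 counts (0.11, 0.045 to 0.18) and its paralog Suv39h2 had 594 and 743 (-0.21, -0.37 to -0.053). Exons of Suv39h1 overlap Gm14820 over 767 bases on the opposite strand. Those of Suv39h2 overlap Dclre1c, at -0.18, over 357 bases on the opposite strand, and by FPKM Suv39h2 was at -0.46. The euchromatic lysine 9 enzymes Ehmt1 (0.070) and Ehmt2 (0.019) were not different beyond counting error. On lysine 20 of histone H4, Kmt5b was lower in pTh17 (-0.30, -0.38 to -0.22), while Kmt5a (0.015, or 0.11 by FPKM) and Kmt5c (0.031) had intervals that spanned 0. Among members with no established activity on histones, Setd3, the actin histidine methyltransferase, was at -0.31 (-0.37 to -0.25) and has a processed pseudogene, Gm14026, of 98.0% identity over 943 bases. Setd5 was at 0.10, and Setd6 and Setd4 had intervals that spanned 0.

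Arginine methyltransferases had a median of 0.0077, with 3 of 7 higher in pTh17 and 3 lower. Without Prmt3 and Prmt9, which have no established activity on histones, the median was 0.15. The leading enzymes were higher. Prmt1, which makes most of the asymmetric dimethylarginine in cells (ENSMUSG00000109324, chr7:44975989-44986568), had 10312 and 9447 counts (0.24, 0.20 to 0.28), and Prmt5, the main enzyme of symmetric dimethylarginine, had 6731 and 6544 (0.15, 0.10 to 0.20). By FPKM, Prmt1 was at 0.15. Prmt2 was at 0.24 with few counts, 296 and 270 (0.0018 to 0.49). Prmt3, which methylates a ribosomal protein, was at -0.22 (-0.14 with the length and GC trend removed), Prmt9, a methylase of splicing factors, at -0.27 and Prmt6 at -0.11. Exons of Prmt6 overlap C130013H08Rik on the opposite strand over 984 bases. Prmt7 was at 0.0077 and not different beyond counting error.

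Acetyltransferases had a median of -0.076, with 3 of 8 lower in pTh17, 1 higher and 4 not different beyond counting error. Kat2b, the coactivator PCAF, had 1200 and 1630 counts (-0.33, -0.44 to -0.22) and has a processed pseudogene, Kat2b-ps, of 95.1% identity over 2479 bases. Kat6a and Kat6b, the MOZ and MORF enzymes, were both at -0.24. Kat7, known as HBO1, which acts at replication origins, was the 1 enzyme higher in pTh17, with 3609 and 3670 counts (0.088, 0.021 to 0.15). Kat2a (-0.059), Kat5 (-0.094), Kat8 (0.063) and Kat14 (0.062) had intervals that spanned 0. Kat5 shares 426 exon bases with Rnaseh2c on the opposite strand, and the pair summed to 0.21, the other side of 0.

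By FPKM, the level per length, each family was led by the same 2 genes in both libraries. Prmt1 made up 48.9% of the summed FPKM of the arginine methyltransferases in pTh17 and 46.3% in npTh17, at 144 and 130 FPKM, with Prmt5 next at 71.4 and 64.3 FPKM. Hdac1 made up 29.8% and 31.3% of the zinc-dependent deacetylases, at 89.98 and 97.5 FPKM, followed by Hdac2 at 82.3 and 90.7 FPKM. By FPKM, Prmt1, Hdac1 and Hdac2 were the 3 highest members in both libraries.

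Among lysine methyltransferases, Ezh2 led with 76.2 and 66.3 FPKM, 13.6% and 11.7% of the family, ahead of the H4 lysine 20 enzyme Kmt5a at 69.2 and 64.0 FPKM. The sirtuins were led by Sirt2 (32.1 and 30.2 FPKM, 33.8% and 35.7%) and Sirt7 (26.0 and 22.0 FPKM). Sirt3, with the largest ratio, was the lowest of its family at 3.57 and 2.18 FPKM. Kdm1a led the demethylases with 35.3 and 40.0 FPKM (16.7% and 17.6%), before Kdm5c at 23.2 and 24.3 FPKM. The acetyltransferases were led by Kat2a (30.0 and 31.4 FPKM, 21.9% and 22.2%) and Kat7 (29.5 and 28.0 FPKM).

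**Figure D2:**
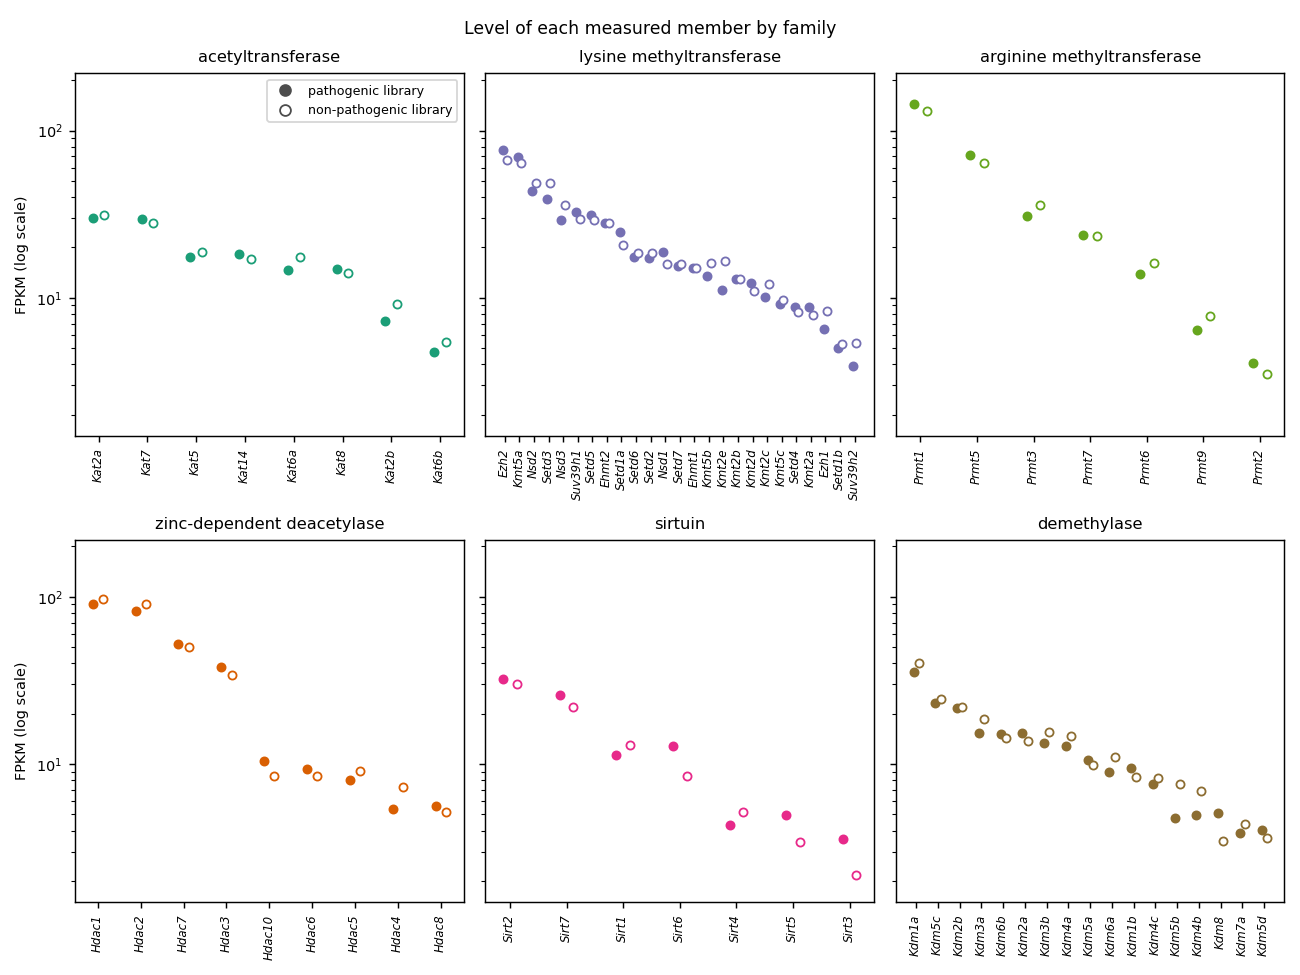
FPKM (log axis) of each measured member in pTh17 (filled points, the pathogenic library) and npTh17 (open points, the non-pathogenic library), 1 panel per family, members ordered by level; there are no error bars because each condition had 1 library. Prmt1 is the highest member at 144 and 130 FPKM, and the points of the 2 libraries lie close together at most genes.

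Paralogs of like activity were set against each other inside each library, a comparison that does not depend on how library sizes are scaled. The difference given is the log2 ratio of the first gene minus that of the second, with a 95% counting interval. Of 8 pairs, 6 differed beyond counting error and did so also with counts halved. Such differences are common at this depth: 33.0% of all measured genes had an interval above 1 and 34.0% below. The share over other pairs of genes was not computed, and the 8 pairs were chosen after seeing the data. Ezh2 over Ezh1 had the largest difference, 0.57 (0.44 to 0.70): Ezh2 FPKM was 11.6 times that of Ezh1 in pTh17 and 7.95 times in npTh17. Kdm6b over Kdm6a followed with 0.44 (0.33 to 0.56), from 1.70 to 1.29 times by FPKM. In both pairs that act on lysine 27, the first gene thus had a larger proportion in pTh17.

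Suv39h1 over Suv39h2 differed by 0.32 (0.16 to 0.49), with FPKM ratios of 8.33 and 5.49. Kat2a over Kat2b differed by 0.27 (0.14 to 0.40), Kmt2d over Kmt2c by 0.25 (0.17 to 0.33) and Kdm5c over Kdm5d, the X-linked and Y-linked copies, by -0.25 (-0.39 to -0.12). By FPKM the Suv39h1 difference was 0.59 and the Kmt2d difference 0.42, and after removal of the length and GC trend the Kmt2d difference was 0.077 and the Kdm6b difference 0.29. Hdac1 over Hdac2 (0.018, -0.051 to 0.087) and Ehmt2 over Ehmt1 (-0.052, -0.15 to 0.050) did not differ beyond counting error, and these intervals leave out a difference of the size seen for Ezh2. The partners of both pairs work together in shared complexes.

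**Figure D3:**
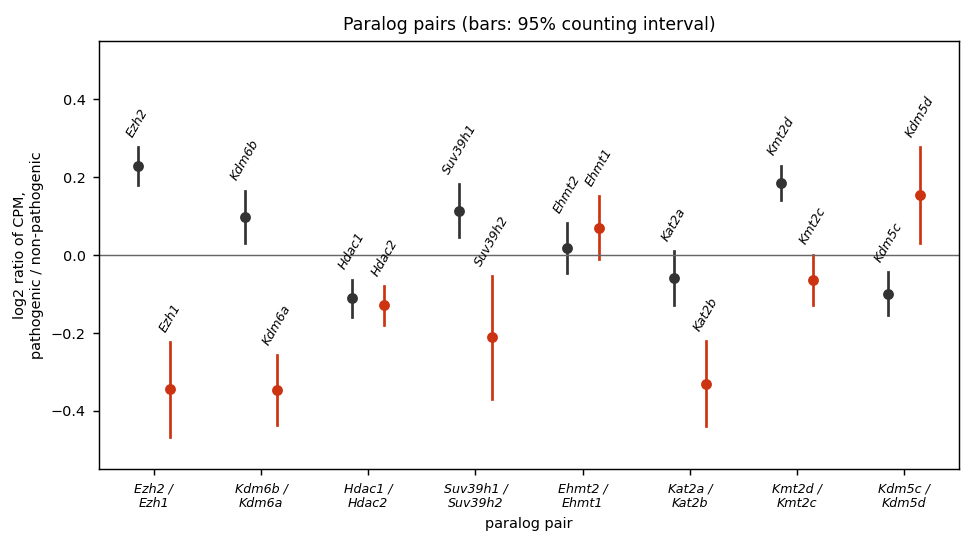
Log2 ratio of CPM (pTh17 over npTh17) for both genes of 8 paralog pairs, first gene in black and second in red; bars are 95% counting intervals and each condition had 1 library. Ezh2 at 0.23 lies above Ezh1 at -0.34, whereas Hdac1 and Hdac2 lie at -0.11 and -0.13.

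Writers and erasers of the same mark were compared by their summed FPKM. For lysine 27 of histone H3, the 2 writers summed to 82.8 FPKM in pTh17 and 74.6 FPKM in npTh17 and the 3 erasers to 28.0 and 29.7 FPKM, a writer to eraser ratio of 2.95 against 2.51. For lysine 9 the ratio was 1.37 against 1.14, with writers at 79.6 and 78.0 FPKM and erasers at 58.1 and 68.4 FPKM. For lysine 4 it was 1.02 against 0.918, for lysine 36 1.74 against 1.81, and for acetylation 0.345 against 0.357. Among members, the ratio thus stood above that of npTh17 for lysines 4, 9 and 27 and below it for lysine 36 and acetylation. No counting interval was computed for these differences, so none is called beyond counting error. The ratio rests on single libraries, with every enzyme weighted by its transcript level alone. The sums leave out enzymes that the name rule does not find. For acetylation, Hat1 alone had 136 and 127 FPKM, beside 137 and 141 FPKM for the 8 acetyltransferases, so the order for all enzymes is not known. For lysine 9, Setdb1 (27.8 and 25.1 FPKM) and Jmjd1c (13.6 and 22.5 FPKM) were left out. Enzymes with 2 marks were counted under each, and all 18 deacetylases, mitochondrial ones included, under acetylation.

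The rest of the chromatin machinery, from lists of other writers and erasers and of complex partners, was likewise near 0. Over 97 measured genes the median was 0.0075, with 50 ratios above 1 and 47 below, and 2 genes passed 1.5-fold in each direction, Phf19 and Jade2 toward pTh17 and Jmjd1c and Setmar toward npTh17. The subunits of Polycomb repressive complex 2 leaned toward pTh17, with a median of 0.13. Of 10, 7 were higher (70%, against 33.0% of all measured genes) and 1 lower (10%, against 34.0%). The accessory subunits Phf19, with 866 and 611 counts (0.61, 0.46 to 0.77), and Epop (0.42, 0.32 to 0.52) were highest. The core subunits Suz12 and Eed, which hold the enzyme in the complex, were at 0.13 and 0.11, and the accessory subunit Mtf2 was lower (-0.22, -0.28 to -0.15).

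The other lists of partners were closer to the shares over all measured genes, 33.0% higher and 34.0% lower. Among 12 COMPASS subunits, which serve the lysine 4 methyltransferases, 5 were higher (41.7%) and 4 lower (33.3%). Men1 at 0.29 and Ncoa6 at -0.27 were at the ends. Of 23 deacetylase complex partners 6 were higher (26.1%) and 8 lower (34.8%). They ran from Mbd2, the methyl-CpG reader of NuRD, at -0.56 (3069 and 4905 counts) to Sap18 at 0.36. Of 28 acetyltransferase complex partners 11 were higher (39.3%) and 12 lower (42.9%). They ran from Epc2 at -0.47 to Jade2, a scaffold of the Kat7 complex, at 0.81 (1430 and 883 counts). Of 16 other writers 6 were higher and 6 lower, with Setmar at -0.63 on 66 and 111 counts, the coactivator Crebbp at -0.25 and the lysine 9 methyltransferase Setdb1 at 0.15. Among 8 other erasers, Jmjd1c, a relative of Kdm3a, had 4064 and 7350 counts and the lowest ratio of all these lists, -0.74 (-0.80 to -0.69). Riox2 was highest there at 0.40 (0.33 to 0.46).

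Cell cycle genes were also higher in pTh17. Of 21 measured, 19 were higher and 2 lower, with a median of 0.42 and 8 past 1.5-fold (38.1%, against 7.20% of all measured genes). Plk1, a mitotic kinase, had 1320 and 747 counts (0.93, 0.80 to 1.06) and Ccnb1, the mitotic cyclin B1, had 1807 and 1042 (0.91, 0.80 to 1.02). The replication helicase subunits Mcm6 (-0.16) and Mcm3 (-0.042) were the 2 that were lower. The part of this difference in the ratios of Ezh2, Suv39h1 or Prmt1 was not tested.

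Ratios varied with transcript length. The members' transcripts are long, with a median of 4430 bases against 3429 over all measured genes. Across the 73 members Spearman's rho of the log2 ratio was -0.24 with length and 0.29 with GC content, and across 10594 measured genes it was -0.14 and 0.18. These are descriptions across genes of 1 pair of libraries, and genes are not independent replicates. All measured genes of up to 2000 bases had a median log2 ratio of 0.12, those of 4000 to 6000 bases of -0.048, and those over 8000 bases of 0.013. The sirtuins had a median length of 2425 bases and the demethylases of 5935, and their median log2 ratios were 0.27 and -0.089 after the trend with length and GC content was removed. The writers then had 15 ratios above 1 and 25 below, in place of 20 and 20. All measured genes then had 5401 above and 5193 below.

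**Figure D4:**
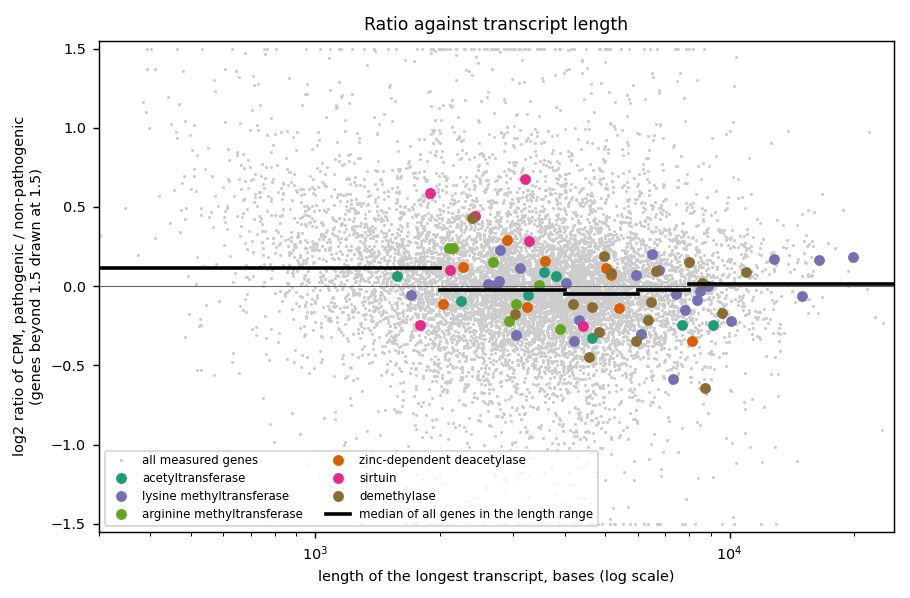
Log2 ratio of CPM (pTh17 over npTh17) against the length of the longest transcript (log axis) for all measured genes (grey) and the 73 measured members (coloured by family); black lines are medians of all genes in 5 length ranges, and genes beyond 1.5 are drawn at 1.5. The median is 0.12 for genes of up to 2000 bases, and Sirt3, Sirt6 and Kdm5b lie away from the lines at their lengths.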

How the data were processed

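The authors deposited whole-number counts per gene and FPKM values for the same genes, per the file headers. The submitters' processing notes name the build mm10; aligner and counting program: not given in the sources used here. Of 23702 rows, 20 held no numbers and 1646 named no gene (2.50% and 2.90% of counts) and were left out.

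TMM factors from edgeR 4.0.16 (R 4.3.3) scaled library sizes and were 1.00 in both. Log2 ratios carry a prior count of 1, and 95% intervals are exact Clopper-Pearson intervals of the share of counts. Pair differences have normal-approximation intervals. Intervals and the floor of 3 counts for a zero cover counting error only, because no molecular identifiers mark which PCR copies share a molecule. With 1 library per condition no p-value was computed. Genes under a mean of 1 CPM were left out of the ratios, leaving 10597. Positions, lengths and overlaps come from GENCODE M21, and copies from blastn 2.17.0 at 95% identity over 200 bases.

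Members, classes and lists were chosen with earlier results of these data known. Named with values were members past 1.5-fold, the 6 highest and 6 lowest ratios, the 2 highest FPKM per family, 8 paralog pairs and Sirt1, Hdac3, Kdm1a, Prmt1 and Prmt5; other members are given by their ratio to account for all. The lists name up to 2 genes in each direction; Suz12 and Eed were added after their values were seen. The calculations were tested on simulated data with independent counts. No fragment was counted more than once there, so this cannot show whether the intervals are too narrow for these libraries.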

Additional observations from a re-analysis of the deposited data

How the results depend on the processing

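Scaling to DESeq2 size factors or totals, a prior count of 5, FPKM with a pseudocount of 0.1 and removal of the length and GC trend each left the median of all measured genes within 0.1 of 0. Sirt3 and Kdm5b stayed past 1.5-fold under each of these scalings; Sirt6 and Kmt2e stand at the threshold. Members 1.5-fold higher in pTh17 numbered 1 in place of 2 with DESeq2 size factors, a prior of 5, the trend removed or a minimum of 5 CPM, which leaves Sirt3 out, and those higher in npTh17 1 in place of 2 with totals, FPKM, a prior of 5 or the trend removed. Without members that have no established histone activity or are mitochondrial, the eraser median was -0.099 in place of 0.022 and the arginine methyltransferase median 0.15 in place of 0.0077. Of members whose interval left out a ratio of 1, Kdm2b reversed by FPKM (-0.020 in place of 0.086) and Kmt2d with the trend removed (-0.064 in place of 0.18). With the trend removed 13 of 73 members, and by FPKM 8, moved outside their counting interval without a change of sign; none did with the other scalings. The cause was not tested.

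Pair comparisons, halved counts and counts per kb for marks were chosen after seeing the data. With the trend removed, the difference was 0.29 for Kdm6b over Kdm6a, -0.10 for Hdac1 over Hdac2 and 0.077 for Kmt2d over Kmt2c; by FPKM it was 0.59 for Suv39h1 over Suv39h2 and 0.42 for Kmt2d over Kmt2c. Counts per kb of the longest transcript in place of FPKM gave family shares, pTh17 and npTh17, of 17.6% and 18.5% for Kdm1a, 14.3% and 12.1% for Ezh2, 38.7% and 39.9% for Sirt2 and 38.2% and 40.1% for Hdac1, and npTh17 shares of 21.6% for Kat2a and 45.3% for Prmt1. By counts per kb, Kat7 stood above Kat2a in pTh17, and Sirt1 above Sirt7 in npTh17. Writer to eraser ratios became 0.970 and 0.854 for lysine 4, 2.83 and 2.36 for lysine 27, 1.29 and 1.07 for lysine 9, 1.61 and 1.65 for lysine 36, and 0.424 and 0.438 for acetylation, each ordered between the libraries as by FPKM. All 10 values moved from those by FPKM by more than counting error. In the 250 bases before the start alone, 0 members in place of 1 held the first E2F form. Depth limits direction for Hdac9, Hdac11 and Kdm4d. No paired analysis was possible because each condition had 1 library.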
